A study of Mus musculus with 48 samples.

Results

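Immediate early genes are transcribed within minutes of a stimulus from factors already present in the cell, with no new protein needed. In neurons they are read as a trace of recent firing and calcium entry, and in glia and other cells as a trace of growth factor or stress signals. 10 such genes, taken by their symbols, were followed here among the 25229 gene symbols of the count table: the AP-1 subunits Fos, Fosb and Junb, the zinc finger factors Egr1 and Egr2, the nuclear receptors Nr4a1, Nr4a2 and Nr4a3, the neuronal factor Npas4 and the synaptic protein gene Arc. The region is called the arcuate nucleus throughout, so that Arc always means the gene.

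The study measured RNA of arcuate micropunches and of left nodose ganglia, where the sensory neurons of the vagus have their cell bodies. All mice were males of the strain C57Bl/6J, 10 to 12 weeks old, homozygous for floxed alleles of both Rev-erb genes (Reverb a/b fl/fl), fed chow freely and kept at 27 C under 12 h of light and 12 h of dark. A tail vein injection of AAV8-TBG-EGFP gave the group called Control, and one of AAV8-TBG-Cre gave the group called HepDKO. Injections were given at 6 to 10 weeks of age, 2 to 4 weeks before tissue was taken. The TBG promoter is active in hepatocytes, so that the deletion was directed at the liver while both groups carried the floxed alleles and a virus. The liver was not analysed here, so the deletion itself was not checked. Tissue was taken 6 h apart, at ZT4 and ZT10 in the light and at ZT16 and ZT22 in the dark, where ZT counts the hours after lights on. Each of the 16 groups had 3 libraries, 48 in all, and each library pooled 3 to 4 mice for arcuate and 4 for nodose, so that p-values measure the spread between pools.

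Arcuate libraries had 15483922 to 20399718 counts and nodose libraries 1813994 to 10422914, and their libraries were prepared by different routes, which cannot be told apart from tissue. Levels are given as CPM, counts scaled to a common library total after correction for library composition (TMM) within a tissue. The 6 listed neuron markers together had 2379 to 2926 CPM in arcuate but 6.78 to 54 CPM in nodose. Of the listed markers of vagal sensory neurons, P2rx2 and Scn10a were at a median of 0 CPM there, and Piezo2, which other cells also express, was the most abundant with 70 CPM. The 5 Schwann cell markers had 10995 to 29980 CPM in nodose and the 5 skeletal muscle markers 4222 to 80488 CPM. Every nodose value below therefore comes from libraries in which neuron transcripts were scarce. In bulk RNA, fewer cells of a type and less RNA per cell cannot be told apart. 1 HepDKO ZT10 library in each tissue had high counts of Xist under its male label. Results were also computed without these libraries, and no member gained or lost a call.

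The start regions of these genes are known for short sites through which calcium, cAMP and growth factor signals reach them, so they are shown before the levels. RefSeq start regions of GRCm38.p6 matched 8 of the 10 members by symbol, all except Arc and Egr1. The bases before the transcript start are printed 5′ to 3′ for Fos, for Nr4a1 and Nr4a3, and for the Egr2 start at 67537869. These are members whose time-of-day values the results turn on, and Nr4a1 is added as a close relative of Nr4a3. Capitals mark TGACG and its reverse complement CGTCA, the core of the cAMP response element (CRE). For Nr4a3 only the bases upstream of the annotated first exon are shown. Fos lies at chr12:85473640-85473889 (+ strand), Nr4a1 at chr15:101266596-101266845 (+ strand), Nr4a3 at chr4:48045055-48045152 (+ strand) and Egr2 at chr10:67537619-67537868 (+ strand).
Fos: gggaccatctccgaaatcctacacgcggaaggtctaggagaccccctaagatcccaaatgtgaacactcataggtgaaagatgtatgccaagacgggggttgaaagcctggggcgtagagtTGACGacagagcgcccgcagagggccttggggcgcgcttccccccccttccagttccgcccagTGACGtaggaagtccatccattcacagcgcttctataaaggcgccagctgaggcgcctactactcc
Nr4a1: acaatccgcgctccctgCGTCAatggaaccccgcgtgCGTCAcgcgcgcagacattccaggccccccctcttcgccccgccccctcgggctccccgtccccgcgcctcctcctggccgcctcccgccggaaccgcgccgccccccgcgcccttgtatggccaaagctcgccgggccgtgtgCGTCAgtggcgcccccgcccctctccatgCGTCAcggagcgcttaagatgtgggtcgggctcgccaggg
Nr4a3: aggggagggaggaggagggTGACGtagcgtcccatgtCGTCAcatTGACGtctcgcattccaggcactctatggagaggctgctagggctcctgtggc
Egr2: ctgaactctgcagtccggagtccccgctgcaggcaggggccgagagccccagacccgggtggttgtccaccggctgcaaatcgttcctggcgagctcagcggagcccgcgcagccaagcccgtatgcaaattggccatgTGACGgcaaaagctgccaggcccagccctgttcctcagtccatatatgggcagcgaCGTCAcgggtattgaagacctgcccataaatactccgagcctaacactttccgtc

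In the 250 bases before the start, 17.8% of 32851 RefSeq windows held TGACG on either strand. All 8 members with an entry held it in at least 1 window, where Egr2 had 5 windows and the others 1 each. Fosb and Junb held 1 copy, Fos and Npas4 held 2, and Nr4a1, Nr4a2 and Nr4a3 held 4 each. Of the Egr2 windows 2 held 0 copies and 3, which overlap each other, held 2, while the shares over all windows are per window. A count of 2 or more was found in 3.9% of all windows and of 3 or more in 0.688%. In Nr4a3 the copies began 231, 213, 205 and 147 bases before the start, the last of them inside the annotated exon and not printed. In Fos they began 129 and 66 bases before it. The full element TGACGTCA, which contains the core, was in 0 member windows and in 1.55% of all. The CArG box, bound by serum response factor, was found before Egr2 starts only among the members, against 1.47% of all windows. The AP-1 site TGACTCA was in 0 member windows (4.46% of all) and the E-box CACGTG in 1 Egr2 window (6.02% of all). These are matches of letters and were not tested against the levels.

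The order of levels differed between the tissues, most of all for Egr2. Per kilobase of GENCODE M21 exon, the arcuate medians over 24 libraries were 8.7 CPM per kb for Egr1, 7.95 for Fos and 7.26 for Junb. The next were Nr4a1, Nr4a2 and Arc, with 4.36, 4.16 and 3.99 CPM per kb. Nr4a3 (1.59), Npas4 (1.42), Fosb (0.66) and Egr2 (0.327) were lowest. Ranges over libraries overlapped between every pair of neighbours in this order except Arc and Nr4a3. In nodose, Egr2 led with 28 CPM per kb, before Nr4a1 (17.2), Nr4a2 (10.8), Egr1 (6.94), Fos (5.23) and Junb (5.13). Nr4a3, Arc and Fosb followed with 0.927, 0.86 and 0.607 CPM per kb, and Npas4 came last with 0.0829. All neighbours in the nodose order had overlapping ranges. Egr2 is a master factor of myelination in Schwann cells, which are scarce in brain, and its level in CPM was 36.8 to 172 in nodose and 0.254 to 1.96 in arcuate. Npas4, which is largely restricted to neurons, had 0 to 16 counts in nodose with 6 libraries at 0, and it was not tested there. The exons of Junb overlap those of Prdx2 on the opposite strand, and whether counting used the strand is not given in the sources used here, so Junb values may include reads of Prdx2.

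**Figure D1:**
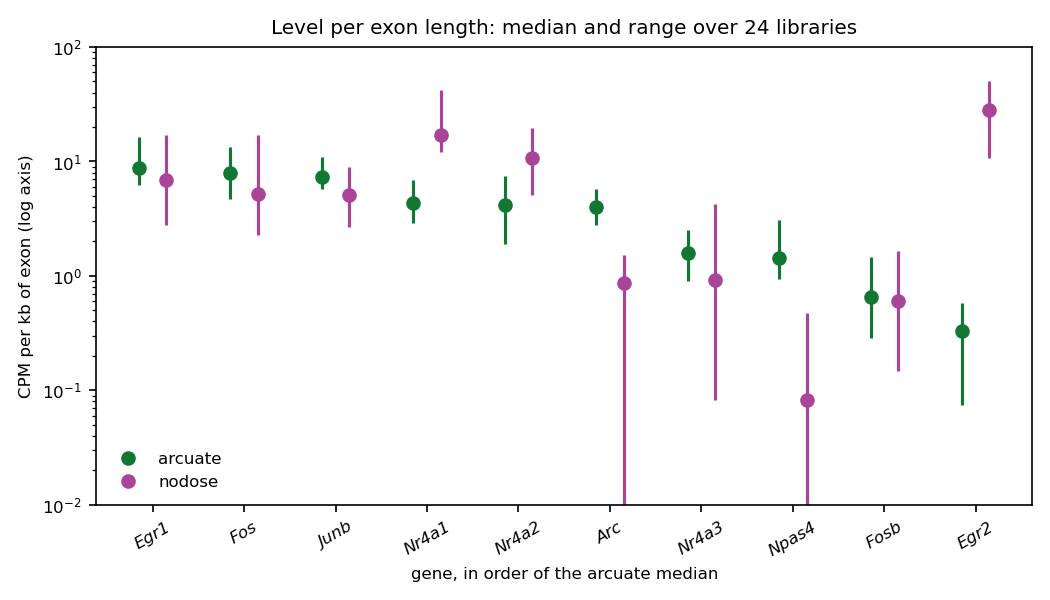
Level per exon length (CPM per kb, log axis) of each gene in arcuate and nodose, with the median as a point and a line from the lowest to the highest of 24 libraries; lines that reach the bottom of the plot start at 0. Egr2 was last in arcuate and highest in nodose.

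In arcuate, 5 of the 10 members differed among the times of day, and the median of each of these 5 was highest at ZT4. In a quasi-likelihood F test of edgeR for any difference among the 4 times, averaged over genotypes and with Benjamini-Hochberg adjustment over 16102 genes, these passed at an adjusted p under 0.05, where 2.79% of all genes did. That share stands for 450 genes, which became 215 without HepDKO ZT16 replicate 2 and 993 without HepDKO ZT4 replicate 3. The 5 were Nr4a3, Egr1, Arc, Fos and Fosb. Nr4a1, Junb, Npas4, Nr4a2 and Egr2 did not pass, with adjusted p from 0.112 to 0.733 in edgeR, although Nr4a1 did by DESeq2 (adjusted p 0.0285). The members' median range over the 4 times was 0.50 on the log2 scale, against 0.16 for all genes.

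Nr4a3 encodes an orphan nuclear receptor that acts without a known ligand. It had 12.1, 14.3 and 15 CPM (lowest, median and highest of 6 libraries) at ZT4, 5.8, 7.59 and 9.4 at ZT10, 8.61, 9.94 and 11 at ZT16, and 5.45, 6.58 and 9.64 at ZT22. All 6 ZT4 libraries lay above all 18 others, and the ZT16 libraries lay between those of ZT4 and most of those of ZT10 and ZT22. The ZT4 libraries had 14.2, 14.9 and 14.1 CPM in the Control libraries and 14.4, 15 and 12.1 in those of HepDKO. The range over the 4 times was 1.02 on the log2 scale, 2.02-fold (edgeR quasi-likelihood F test, adjusted p 7.36e-06). ZT4 exceeded the mean of the other times by 0.82 (SE 0.092), 1.76-fold, given as a description. Its paralogs were less clear in time. Nr4a1 had 13.1, 20.3 and 24.4 CPM at ZT4 and 10.2 to 17.6 at the other times, with a range of 0.51 (adjusted p 0.112). Nr4a2, which also marks dopamine neurons, had 13.1, 21.1 and 28.4 CPM at ZT4 and 7.66 to 30.4 at the other times, and these ranges overlapped almost wholly.

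**Figure D2:**
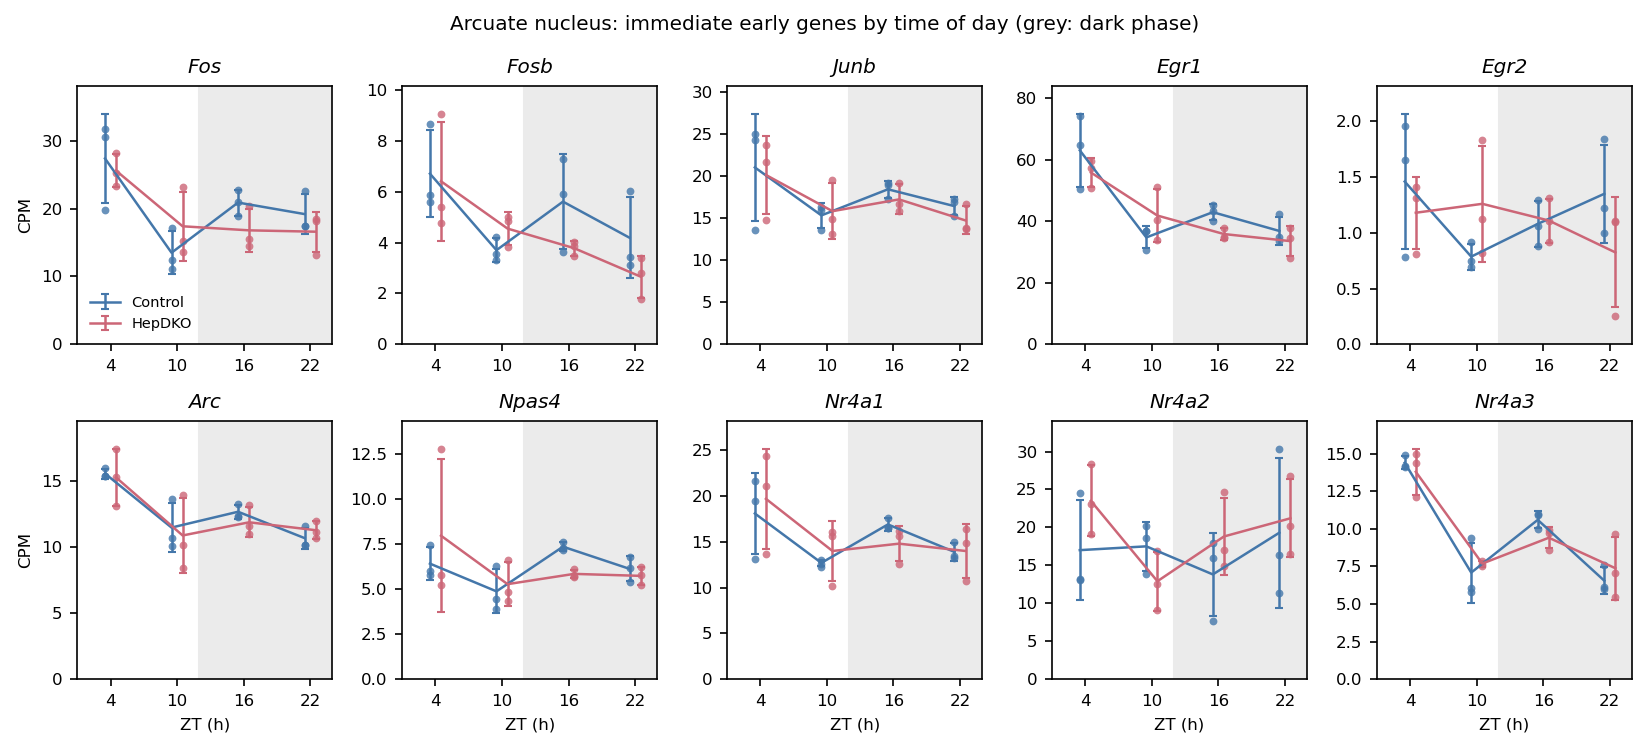
CPM of the 10 genes in arcuate against ZT in hours, with each library as a point, the line and bars giving mean and SD of 3 libraries per genotype, and the dark phase in grey. All ZT4 points of Nr4a3 lie at or above 12.1 CPM and all others at or below 11.

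Of the AP-1 subunits, Fos and Fosb differed among the times and Junb did not pass. Fos had 19.8, 26.7 and 31.8 CPM at ZT4, 11.1, 14.4 and 23.2 at ZT10, 14.5, 19.7 and 22.8 at ZT16, and 13.2, 17.8 and 22.6 at ZT22. 5 of the 6 ZT4 libraries were above all 18 others. The range was 0.79 on the log2 scale, 1.73-fold (edgeR quasi-likelihood F test, adjusted p 0.0169). Fosb, whose long-lived splice product builds up with repeated activity, had 4.75, 5.73 and 9.07 CPM at ZT4 and 1.77, 3.26 and 6.04 at ZT22. The 2 ranges overlapped, and the range of the fitted times was 0.97, 1.96-fold (same edgeR test, adjusted p 0.0273). Junb, a partner of Fos, had 13.6, 22.7 and 25 CPM at ZT4 and 13.1 to 19.5 at the other times, with 4 of 6 ZT4 libraries above all others and a range of 0.40 (adjusted p 0.165). The calls of Fos and Fosb each rested on few libraries. Fos did not pass without Control ZT4 replicate 1 (adjusted p 0.0561) or 2 (0.0548), by the same edgeR test. Fosb did not pass without Control ZT4 replicate 2 (0.089), HepDKO ZT4 replicate 2 (0.0551) or HepDKO ZT16 replicate 2 (0.0507), and only 3 members passed without Control ZT4 replicate 2.

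Egr1 couples growth factor and synaptic signals to later transcription. It had 50.4, 58.4 and 74 CPM at ZT4, 30.6, 36.8 and 51.1 at ZT10, 34.6, 39 and 45.1 at ZT16, and 28.1, 34.8 and 42.2 at ZT22. 4 of 6 ZT4 libraries were above all others, and 1 library of another time reached into the ZT4 range. The range was 0.76 on the log2 scale, 1.69-fold (edgeR quasi-likelihood F test, adjusted p 0.000259). Egr2 was close to its counting limit in arcuate, at 4 to 35 counts a library, and gave 0.782, 1.36 and 1.96 CPM at ZT4 and 0.254 to 1.84 at the other times (adjusted p 0.733).

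Arc protein moves to dendrites and trims glutamate receptors at synapses. Its mRNA had 13.1, 15.4 and 17.5 CPM at ZT4, 8.43, 10.4 and 14 at ZT10, 11, 12.4 and 13.3 at ZT16, and 10.2, 11 and 12 at ZT22. 5 of 6 ZT4 libraries were above all others. The range was 0.49 on the log2 scale, 1.41-fold (edgeR quasi-likelihood F test, adjusted p 0.0103). Npas4, which responds to calcium entry, had 5.24, 5.89 and 12.8 CPM at ZT4 and 3.9 to 7.63 at the other times. 1 HepDKO library at ZT4 held the 12.8 and the other ZT4 libraries lay among the rest (adjusted p 0.267).

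Parts of the arcuate time course were tested in turn. The 24-h component, fitted from ZT4 minus ZT16 and ZT10 minus ZT22, passed for 2 of 10 members, where 3.86% of all genes passed. That share stands for 622 genes, with 287 to 1031 when 1 library was left out. Egr1 had an amplitude (mean to peak) of 0.31 on the log2 scale (SE 0.05) with its peak at 4.7 h after lights on (edgeR quasi-likelihood F test, adjusted p 0.00367). Nr4a3 had an amplitude of 0.25 (SE 0.0567) with its peak at 4.6 h (same edgeR test, adjusted p 0.0297). The Nr4a3 call was lost in 7 of the 24 fits that left out 1 library, the 3 Control ZT4 libraries, Control ZT16 replicates 2 and 3 and HepDKO ZT16 replicates 2 and 3 (adjusted p up to 0.0806 by edgeR's test). Fos had an amplitude of 0.27 (SE 0.074) that did not pass in edgeR (adjusted p 0.0825) but did by DESeq2 (adjusted p 0.0156).

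From dark minus light, 1 of 10 members passed, where 3.19% of all genes passed and 1.43% were lower in the dark. The 3.19% stand for 513 genes, with 191 to 935 when 1 library was left out. The member was Egr1, with 30.6, 50.5 and 74 CPM in 12 light libraries and 28.1, 36.4 and 45.1 in 12 dark ones. The groups overlapped, 7 light libraries lay above all dark ones, and Egr1 fell by 0.36 on the log2 scale (SE 0.0717, 0.78-fold, edgeR quasi-likelihood F test, adjusted p 0.0114). Nr4a3 was at -0.29 (SE 0.0837) and did not pass in edgeR (adjusted p 0.0528) but did by DESeq2 (adjusted p 0.0263).

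The 12-h component, the mean of ZT4 and ZT16 minus the mean of ZT10 and ZT22, was added after the values were seen. 4 times a day cannot separate a true 12-h wave from a single high time. It passed for 1 of 10 members, where 0.0124% of all genes passed (2 genes). Nr4a3 was higher at ZT4 and ZT16 by 0.73 on the log2 scale (SE 0.0837, 1.66-fold, edgeR quasi-likelihood F test, adjusted p 5.41e-05). Egr1 was at 0.40 (SE 0.0717, adjusted p 0.0672), Fosb at 0.57 (SE 0.144), Fos at 0.43 (SE 0.106) and Arc at 0.32 (SE 0.0718). All 10 estimates were above 0, while 51% of all genes were below it, and the members' median was 0.33 against -0.00. 8 members had an unadjusted p under 0.05, as did 7.1% of all genes. By DESeq2, 4 members and 20 of all genes passed.

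Some cell type markers also moved with time in arcuate. Fabp7, Opalin, Cnp, Cldn5 and Flt1 passed the test for any time. The 5 oligodendrocyte markers together had 869 to 1405 CPM at ZT4 and 585 to 1286 CPM at the other times, and the 5 endothelial ones had 115 to 135 at ZT4 and 97.3 to 155 at the others. 0 of the 6 neuron markers passed, and their sum was 2425 to 2772 CPM at ZT4 and 2379 to 2926 at the others. The 6 markers of neighbouring nuclei summed to 57 to 554 CPM at ZT4 and 78.9 to 906 at the others. Of 60 correlations between a member and 1 of 6 cell type scores over the 24 arcuate libraries, 0 had an adjusted permutation p under 0.05. The part of tissue makeup in the arcuate time differences was not tested.

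In nodose, Egr2 was higher in the light and Nr4a3 was highest near the change from light to dark. The 24-h component passed for 2 of the 9 members tested, Egr2 and Nr4a3, where 1.33% of 14867 genes passed. The test for any time passed for 1 of 9, Egr2, where 1.11% of all genes passed, and dark minus light passed for 1 of 9, again Egr2, where 0.41% of all genes passed and 0.121% were lower in the dark. With 1 library left out, genes called ran from 129 to 276 (24-h component), 96 to 284 (any time) and 37 to 113 (dark minus light). For the 12-h component 0 of 9 members passed, as did 0% of all genes. 0 members were at an unadjusted p under 0.05 (6.92% of all genes), and DESeq2 called 0 members and 5 of all genes.

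Egr2 had 69.9, 129 and 172 CPM at ZT4, 78.5, 109 and 125 at ZT10, 36.8, 51.5 and 67.5 at ZT16, and 59.6, 82.1 and 99.2 at ZT22. 5 of the 6 ZT16 libraries were below all others, and 10 of 12 light libraries were above all 12 dark ones. The dark level fell by 0.83 on the log2 scale (SE 0.125), to 0.56 of the light level (edgeR quasi-likelihood F test, adjusted p 0.00199). The 24-h amplitude was 0.66 (SE 0.0889), with a peak 5.2 h after lights on (same edgeR test, adjusted p 0.000906). In each genotype alone the amplitude did not pass in edgeR, at 0.65 for Control (adjusted p 0.0688) and 0.67 for HepDKO (adjusted p 0.0847). These calls held in all 24 fits that left out 1 library, with an amplitude of 0.61 to 0.71.

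Egr2 levels in nodose were set beside other Schwann cell markers. Prx, Pmp22 and Cnp did not pass for any time, the 24-h component or dark minus light (adjusted p from 0.594 to 0.968 in edgeR). The summed level of the list had a median of 16676 CPM in light and 15737 CPM in dark libraries. With the Schwann cell score, which leaves out Egr2, as a covariate, an alternative added after the values were seen, the Egr2 dark minus light difference was -0.89 and its amplitude 0.66 (adjusted p 6.66e-07 and 9.69e-07 by edgeR's test). With the muscle and adipocyte scores as covariates these were -0.90 and 0.67.

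**Figure D3:**
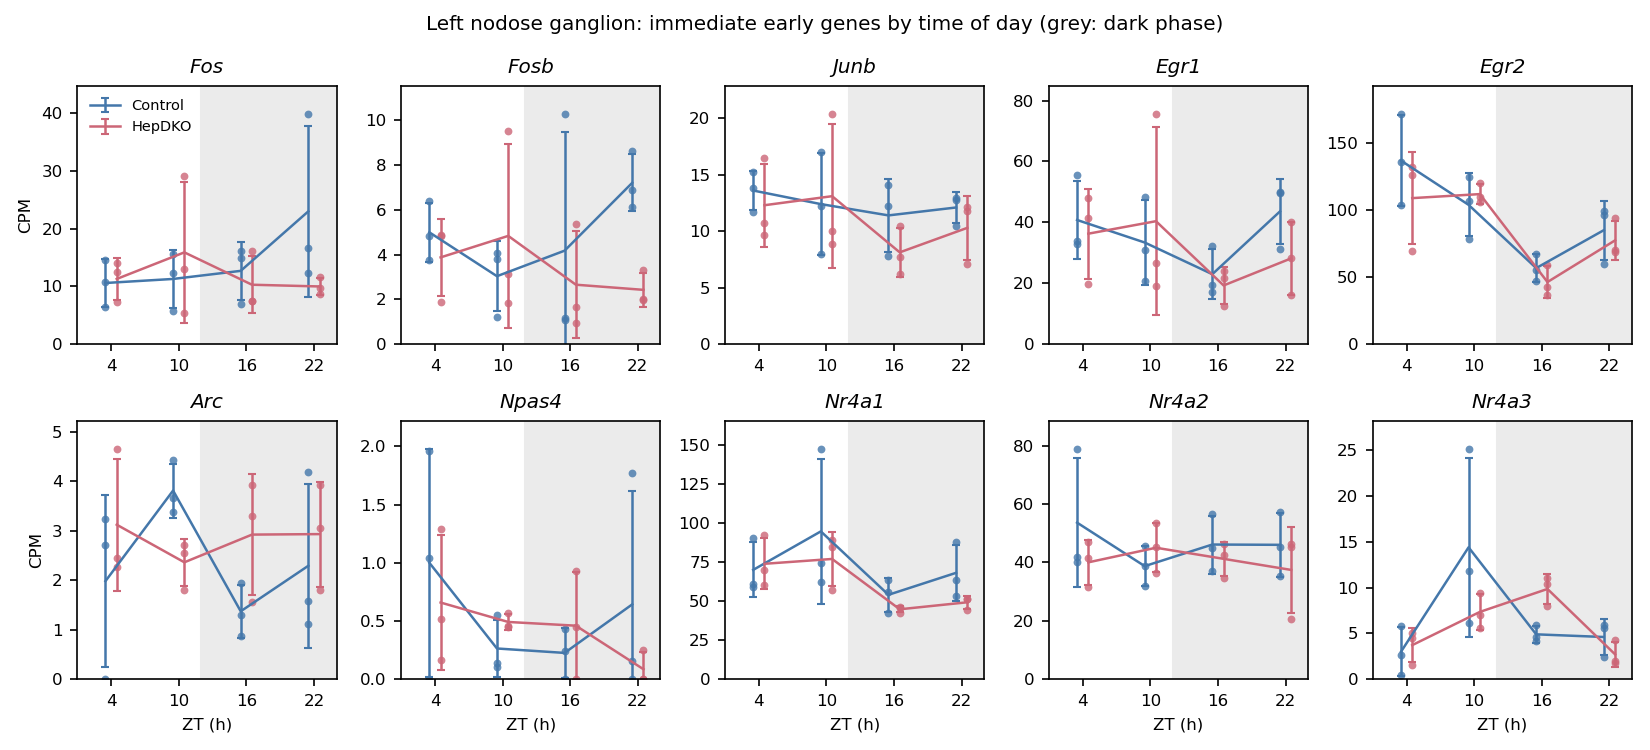
CPM of the 10 genes in nodose against ZT in hours, drawn as for arcuate (points are libraries, lines and bars mean and SD of 3). The Egr2 libraries of ZT16 lie between 36.8 and 67.5 CPM and those of ZT4 between 69.9 and 172.

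Nr4a3 in nodose had 0.491, 3.58 and 5.83 CPM at ZT4, 5.56, 8.23 and 25.2 at ZT10, 4.11, 6.99 and 11.1 at ZT16, and 1.81, 3.34 and 5.91 at ZT22. The highest value, 25.2, was Control ZT10 replicate 1, and the lowest, 0.491 from 1 count, was Control ZT4 replicate 1. The amplitude was 0.90 on the log2 scale (SE 0.188), with a peak 12.2 h after lights on (edgeR quasi-likelihood F test, adjusted p 0.0366). This call was lost in 14 of the 24 fits that left out 1 library, with adjusted p up to 0.0917 without HepDKO ZT10 replicate 3 by edgeR's test. It held in the 10 fits that left out Control ZT4 replicates 1 and 3, ZT10 replicate 3, ZT16 replicate 3 and ZT22 replicates 1 and 3, or HepDKO ZT4 replicate 1, ZT10 replicate 2, ZT16 replicate 2 and ZT22 replicate 1. By the test for any time Nr4a3 did not pass in edgeR (range 1.51, adjusted p 0.0592), but it did with the Schwann cell score as a covariate (adjusted p 0.0371) and by DESeq2 (adjusted p 0.00141).

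Nr4a3 in nodose was higher in libraries with more fat cell transcripts. Its log2 CPM and the mean log2 CPM of the adipocyte markers Adipoq, Plin1, Cidec, Fabp4 and Retn had a Pearson r of 0.79 (permutation p 2e-05, adjusted 0.00054 over 54 relations of 9 members with 6 scores). Spearman's rho was 0.70 (permutation p 0.00024, adjusted 0.00324). How many of all genes follow this score was not counted. Without the 2 libraries farthest from the median of Nr4a3 r was 0.77, and it was 0.77 within Control and 0.85 within HepDKO. The deviations from the group means gave 0.80, so libraries of 1 group differed together as well. The summed adipocyte markers had medians of 429, 927, 823 and 469 CPM at ZT4, ZT10, ZT16 and ZT22. With muscle and adipocyte scores as covariates the amplitude of Nr4a3 was 0.56 and did not pass (adjusted p 0.117 in edgeR). With the Schwann cell score it was 0.72 and passed (adjusted p 0.0344).

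**Figure D4:**
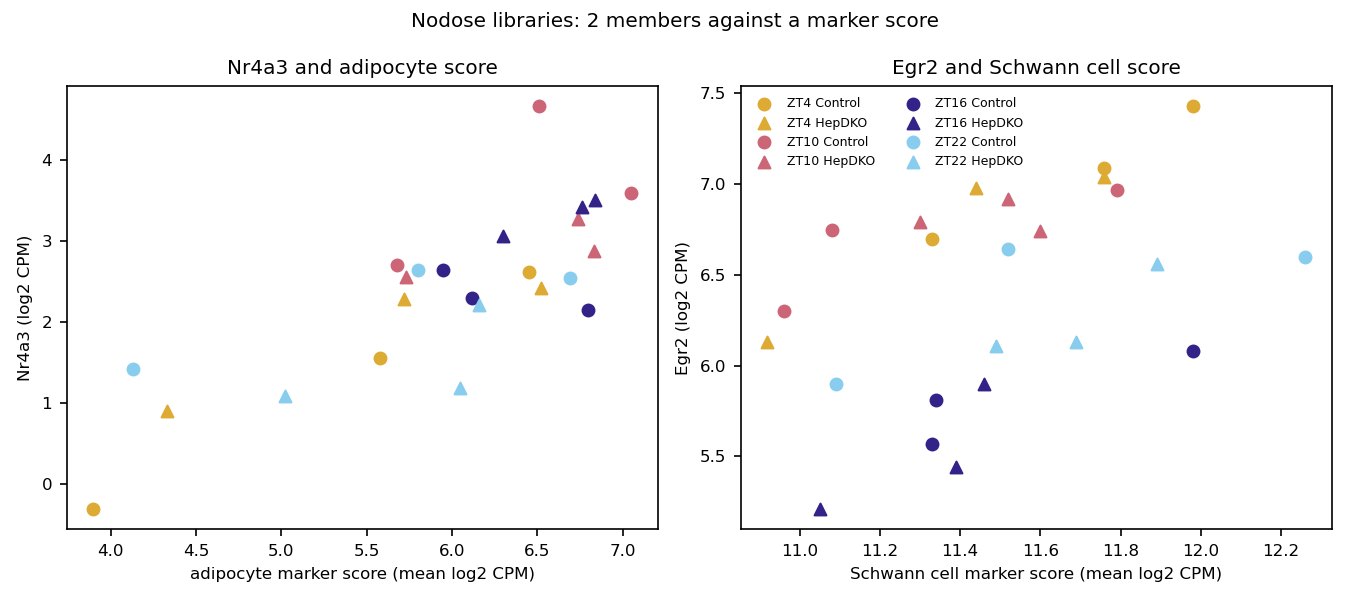
Nodose libraries as points, coloured by ZT and shaped by genotype, with log2 CPM of Nr4a3 against the adipocyte marker score and of Egr2 against the Schwann cell score without Egr2. Nr4a3 follows the adipocyte score (Pearson r 0.79), and Egr2 has an r of 0.45 with the Schwann cell score, with the ZT16 libraries between 5.21 and 6.08 on the log2 CPM scale of Egr2.

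The other nodose members varied widely between libraries of a group. Nr4a1 had 57.2, 72.1 and 148 CPM in light and 42.2, 51.6 and 88.1 in dark libraries. 9 of 12 dark libraries were below all light ones, and the difference of -0.55 (SE 0.136) did not pass (adjusted p 0.0792 in edgeR), although it did by DESeq2 (0.0163). Its 24-h amplitude was 0.39 (SE 0.0963, adjusted p 0.104 in edgeR and 0.0306 by DESeq2). Fos had 5.42 to 39.9 CPM, with the highest value in Control ZT22 replicate 1 and the next, 29.2, in HepDKO ZT10 replicate 1. Egr1 had 12.4 to 75.7 CPM, the highest in HepDKO ZT10 replicate 1, and its amplitude of 0.43 (SE 0.171) did not pass. Nr4a2, at 20.5 to 79 CPM, had an amplitude of 0.04 (SE 0.101). Arc and Fosb, at 0 to 43 and 4 to 85 counts a library, allow little precision in nodose.

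The rhythms of the tissues were compared directly. Of 13941 genes tested in both, 0.373% differed in the 24-h component by an F test on the edgeR estimates with Benjamini-Hochberg adjustment. 0 of 9 members passed, and Egr2, Nr4a1 and Nr4a3 had unadjusted p under 0.05, as did 10.1% of all genes. Nr4a3 was close to the threshold, and its call depended on the fit. It peaked 4.6 h after lights on in arcuate and 12.2 h in nodose, the amplitude of the difference was 1.02 (SE 0.2), and the adjusted p was 0.0502. The same F test on edgeR's fits was first run with unshrunken coefficients, which gave 0.0463. It was changed to edgeR's default shrunken coefficients after that value had been seen, and the call turned with this choice. In 1 edgeR fit over both tissues it was 0.00701. With the Schwann cell score in the nodose fit it was 0.0312, and with muscle and adipocyte scores 0.0851. By the same F test on edgeR's fits it was 0.0515 with RLE factors, 0.0634 with no filter on low counts and 0.0729 without the high-Xist libraries. Dark minus light differed between tissues for 0.0861% of genes and 0 members, and Egr2 had the lowest unadjusted p (-0.08 in arcuate and -0.83 in nodose, adjusted p 0.308 by the F test on edgeR's fits). The 12-h component differed for 0% of genes and 0 members, with 5 members at an unadjusted p under 0.05, as were 5.95% of all genes. Its estimates were above 0 for 10 of 10 members in arcuate and below 0 for 8 of 9 in nodose, where 51.9% of all genes were below it, Nr4a3 standing at 0.73 and -0.27 (adjusted p 0.792 for the difference by the same F test on edgeR's fits).

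**Figure D5:**
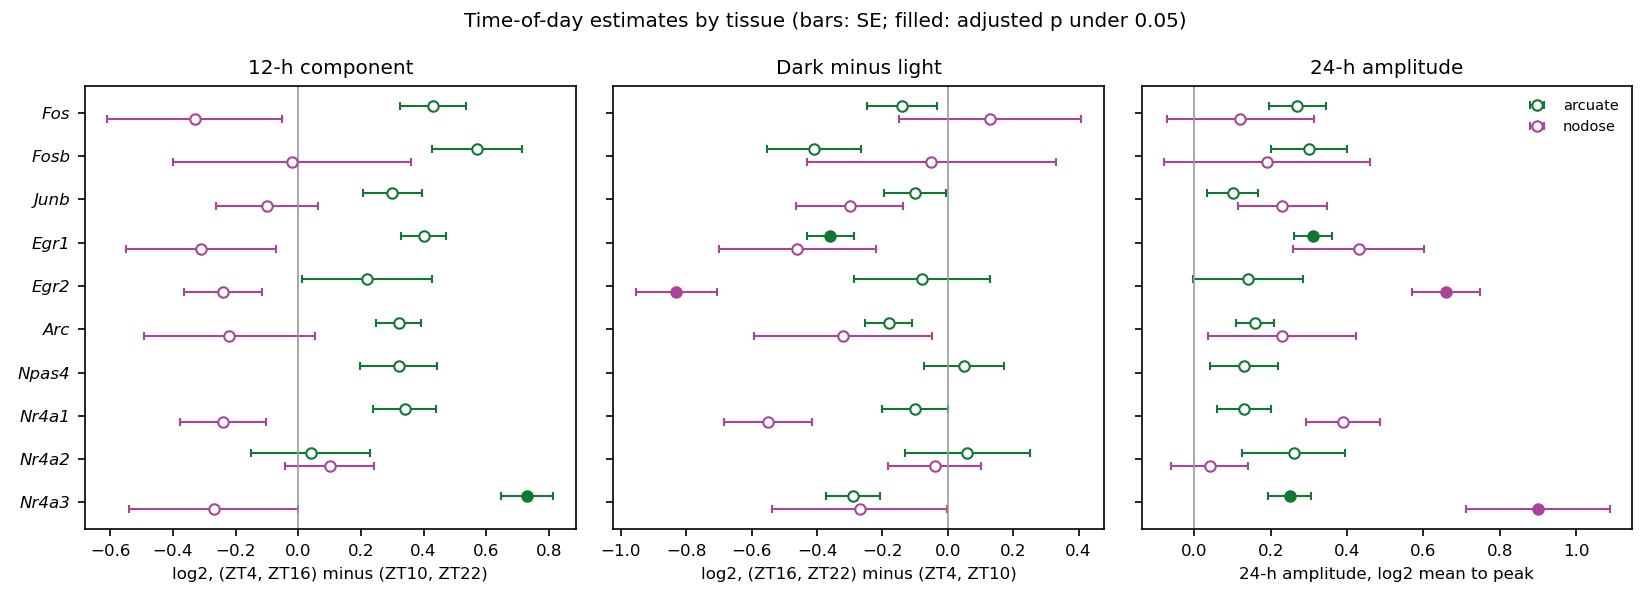
Estimates on the log2 scale with SE bars for the 12-h component, dark minus light and the 24-h amplitude of each gene in arcuate and nodose; filled points had an adjusted p under 0.05, and Npas4 was not tested in nodose. Filled points are Nr4a3 in arcuate on the left, Egr1 in arcuate and Egr2 in nodose in the middle, and Egr1 and Nr4a3 in arcuate with Egr2 and Nr4a3 in nodose on the right.

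Whether loss of Rev-erb in hepatocytes altered these genes was asked next. As a mean over the 4 times, HepDKO minus Control passed for 0 of 10 members in arcuate and 0 of 9 in nodose by edgeR's quasi-likelihood test, where 0% of all genes passed in either tissue. 0 members had an unadjusted p under 0.05, where 8.61% of all genes did in arcuate and 3.34% in nodose. By DESeq2 0 members passed, with 23 of all genes in arcuate and 2 in nodose. In arcuate, Fos had 11.1, 19.4 and 31.8 CPM (lowest, median and highest of 12) in Control and 13.2, 18.3 and 28.2 in HepDKO, a log2 difference of -0.06 (SE 0.106). Egr1 had 30.6, 41.1 and 74 in Control and 28.1, 37.8 and 59.6 in HepDKO (-0.07, SE 0.0717). Nr4a3 had 5.8, 9.69 and 14.9 in Control and 5.45, 9.12 and 15 in HepDKO (0.02, SE 0.0837). The groups overlapped almost wholly for each of these genes. Estimates ran from -0.25 (Fosb, SE 0.144) to 0.15 (Nr4a2, SE 0.19). 7 of 10 were below 0, as were 52.2% of all genes, with a median of -0.05 against -0.00 for all genes.

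In nodose the estimates were less precise. Nr4a1 had 42.2, 62.7 and 148 CPM in the Control libraries and 42.5, 54.4 and 92.2 in those of HepDKO (-0.24, SE 0.136), and Egr2 had 47.3, 97.8 and 172 and 36.8, 82.1 and 132 (-0.16, SE 0.125). 8 of 9 estimates were below 0, as were 46.7% of all genes, with a median of -0.18 against 0.01. Only Arc was above 0, at 0.32 (SE 0.272).

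At single times 0 members passed in any of the 8 comparisons, where 0% of all genes passed, and 0 members passed by DESeq2, which called 19 of all genes at ZT4 in arcuate and 0 in each of the other 7 comparisons. Genes with an unadjusted p under 0.05 made up 11.9%, 2.34%, 2.73% and 3.72% of all genes at ZT4, ZT10, ZT16 and ZT22 in arcuate, and 2.36%, 2.04%, 4.94% and 5.25% in nodose. In arcuate, Fosb at ZT22 had 6.04, 3.43 and 3.12 CPM in the Control libraries and 2.79, 3.41 and 1.77 in those of HepDKO, and was the only member under 0.05 unadjusted (-0.65, SE 0.31, adjusted p 1 in edgeR). In nodose the only one was Fos at ZT22, with 39.9, 12.3 and 16.7 CPM in the Control libraries and 11.6, 8.67 and 9.82 in those of HepDKO (-1.21, SE 0.545, adjusted p 0.877 in edgeR). The Fos groups did not overlap, and 1 Control library was far above the other 2.

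Rhythms within a genotype were tested on the group means of its 12 libraries, with the spread taken from all 24 libraries of the tissue. In arcuate 0 members passed in Control, where 0.261% of all genes passed, and 0 in HepDKO, where 0.379% did. 3 and 4 members had unadjusted p under 0.05 (7.73% and 17.4% of all genes), and DESeq2 called 0 and 1 members, with 99 and 401 of all genes against 42 and 61 in edgeR. In nodose 0 members passed in Control (0.242% of all genes) and 0 in HepDKO (0.121%), with 2 and 3 members under 0.05 unadjusted (8.88% and 7.28% of all genes) and 1 and 1 by DESeq2, which called 125 and 67 of all genes against 36 and 18 in edgeR. Egr1 in arcuate had an amplitude of 0.28 in Control (SE 0.0704) and 0.36 in HepDKO (SE 0.0713), and Nr4a3 had 0.23 and 0.28. The difference in rhythm between genotypes passed for 0 members and 0% of all genes in both tissues, with 0 members under 0.05 unadjusted (2.37% of arcuate and 2.83% of nodose genes) and 0 by DESeq2. Its lowest p was that of Fosb in arcuate (amplitude 0.53 for the difference, SE 0.209, adjusted p 0.999 in edgeR).

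Genes around the members in the same response were followed from 4 lists. Of 17 tested other primary response transcription factors, 5 passed for any time in arcuate, where 2.79% of all genes passed. These were the Egr relatives Egr3 (range 0.70 on the log2 scale) and Egr4 (0.74), the AP-1 subunit Fosl2 (0.63), the stress factor Atf3 (1.05) and the clock-linked repressor Nfil3 (0.59). The list's median range was 0.35, against 0.16 for all genes. Of 18 feedback inhibitors, 1 passed for any time, the kinase-like Trib1 (0.52), and 3 had a 24-h component (3.86% of all genes): Trib1, Gadd45g and the cAMP repressor gene Crem. In dark minus light, which 3.19% of all genes passed, Crem and Spry4 rose in the dark, and Trib1 and Gadd45g fell. Of 18 neuronal effectors, the secreted peptide precursor Vgf passed for any time (0.42) and rose by 0.30 (SE 0.0511) in the dark. Of 26 upstream kinases and factors, 0 passed for any time, and 4 were under 0.05 unadjusted, as were 19.5% of all genes. Creb1, whose product binds the CRE, was 0.22 higher in the dark (SE 0.0605, adjusted p 0.0495 in edgeR). Jund fell by 0.13 in the dark.

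In nodose, 2 of 16 tested factors passed for any time, the core clock repressor Bhlhe40 and Nfil3, where 1.11% of all genes passed. In dark minus light (0.41% of all genes) Bhlhe40 fell by 0.49 in the dark (SE 0.0939), and Nfil3 rose by 1.49 (SE 0.227). Of 18 feedback inhibitors Spry4 passed (range 0.69, peak 1.3 h after lights on). 0 of 15 effectors and 0 of 26 upstream genes passed, with 3 and 4 under 0.05 unadjusted, as were 12.4% of all genes. For genotype as a mean over times, 0 genes of these lists passed in either tissue. In arcuate 2, 4, 2 and 2 genes of the 4 lists had unadjusted p under 0.05, as did 8.61% of all genes, and in nodose 1, 1, 1 and 0, as did 3.34% of all genes.

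Pairs of members were compared over the libraries of each tissue, and the tissues were not tested against each other. Permutations were made over all libraries of a tissue without regard to group, so a shared time course enters their p-values. Pairs of other genes were not counted. Of 45 pairs over 24 arcuate libraries 42 had a positive r, with a median of 0.57, and 27 had an adjusted permutation p under 0.05, all positive (25 by Spearman's rho). Junb and Nr4a1 had a Pearson r of 0.87 and a Spearman rho of 0.82 (permutation p 1e-05 for both, the lowest value that 100000 permutations can reach, adjusted 0.000112 and 0.000225). Without the 2 farthest libraries r was 0.84, and it was 0.92 within Control and 0.86 within HepDKO. Fos and Egr1 had an r of 0.86 and a rho of 0.87 (permutation p 1e-05 for each), 0.83 without the 2 farthest, and 0.88 and 0.84 within the genotypes. Deviations from the group means of these pairs gave 0.82 and 0.77, so pools of 1 group and time that were high in 1 gene were high in the other. For Arc and Nr4a3 the pooled r was 0.60 (rho 0.56, permutation p 0.00177 and 0.00534), while that of deviations was -0.43. Over all 45 pairs the median r of deviations was 0.19. In nodose 26 of 36 pairs were positive, with a median r of 0.27 and a median r of deviations of 0.08. 6 had an adjusted p under 0.05, of which 5 were positive, and 2 passed by Spearman's rho. The highest r was that of Fosb and Egr1 (r 0.75 and rho 0.75, permutation p 3e-05 for each, 0.69 without the 2 farthest, 0.72 and 0.80 within the genotypes).

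Nr4a2 in nodose moved with the makeup of the tissue. Against the endothelial score its r was -0.74 and rho -0.80 (permutation p 2e-05 for each, adjusted 0.00054 and 0.00081), -0.70 without the 2 farthest libraries, and -0.67 and -0.81 within Control and HepDKO. Against the Schwann cell score r was 0.64 and rho 0.78 (permutation p 0.0006 and 3e-05), 0.83 without the 2 farthest, and 0.82 and 0.41 within the genotypes. Of the 54 relations of members and scores 9 had an adjusted Pearson p under 0.05. The share of all genes that follow these scores was not counted.

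The genes most like the members were ranked by Pearson r, over the 24 libraries of a tissue, with the mean of the members' standardized log2 CPM. In arcuate the highest were 4933406C10Rik (0.73), Zscan30 (0.71), Sik1 and Egr3 (0.68 each), Ccnq (0.67) and Btg2 (0.66), then Amh, Dcun1d2, Mir212 and Rnase1 (0.65 each). Sik1 encodes a kinase that restrains CREB coactivators, and Btg2 an antiproliferative protein. In nodose they were Foxred2 (0.73), Rhbdd1 and Rbm3 (0.72 each), Zeb1 (0.71), Zfp36 and Micu2 (0.67 each), Cldn14, 2410002F23Rik and Tmeff1 (0.66 each) and Sort1 (0.64). Zfp36 encodes a protein that destabilizes early response mRNAs, and Rbm3 a cold-induced RNA-binding protein. The median r over all genes was -0.00 in arcuate and 0.02 in nodose. Libraries of a tissue differ in depth and time, which the ranking does not take into account, and no p is attached to it.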

How the data were processed

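The deposited table holds raw counts per gene symbol for 48 libraries, as the authors left them after FastQC 0.11.7, Trim Galore 0.6.10 and STAR 2.7.10b on mm10, per the submitters' processing notes. The counting tool, annotation and strand setting are not given in the sources used here. Nodose RNA was depleted of ribosomal RNA before library preparation, per the labels' protocols. Columns were matched to samples by title, and 0 columns were left unmatched.

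Each tissue was fitted apart in edgeR 4.0.16 (R 4.3.3) with TMM factors, filterByExpr, 1 mean for each of 8 groups, robust quasi-likelihood F tests and Benjamini-Hochberg adjustment over all genes tested, at a threshold of 0.05. 24 tests were made within tissues and 4 between them. Amplitudes are mean to peak on the log2 scale. log2 CPM used a prior count of 2, and marker scores an offset of 0.5 CPM. Correlations used 100000 permutations of libraries within a tissue, across its groups (SciPy 1.17.1, two-sided). Scripts were tested on simulated counts. Alternatives were DESeq2 1.42.0, RLE factors, no filter, the replicate block, marker scores, 1 fit over both tissues, and leaving out each library or both high-Xist libraries. Replicate pairs of a group differed beyond counting noise (lowest chi-square per degree of freedom 2.89).

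The members, gene lists, markers and tests were chosen with earlier results of these data known. Named genes are the 10 members in every comparison, of each other list the genes past the threshold (at most 5 for a test), and the 10 genes most like the members in each tissue. Start regions are from RefSeq (GRCm38.p6) and exon lengths from GENCODE M21. Single values of some listed markers are not reported here. Intervals are not given, as the SE covers the spread between pools.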

Additional observations from a re-analysis of the deposited data

How the results depend on the processing

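Of 853 member values under alternatives other than leaving out 1 library, 827 kept their direction and their side of the threshold, 1 no longer passed, 16 newly passed and 9 changed direction. A change of direction was a change of sign, for an amplitude a peak moved by over 6 h, and for any time a negative correlation with the course of the 4 times in the report. Of 4008 values with 1 library left out these were 3859, 26, 27 and 96. Both counts cover genotype as a mean over times, the averaged 24-h component, any time, dark minus light and the 12-h component. The 4 tests between tissues are included. Rhythms within a genotype, their difference and genotype at single times are left out. For each change below the cause was not tested.

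DESeq2 called 1 member for the arcuate rhythm in HepDKO, 3 for the 24-h component (Fos added), 6 for any time (Nr4a1 added), 2 for dark minus light (Nr4a3 added) and 4 for the 12-h component (Fos, Egr1 and Arc added). In nodose it called 1 for the rhythm in Control, 1 in HepDKO, 3 for the 24-h component (Nr4a1 added), 3 for any time (Nr4a1 and Nr4a3 added) and 2 for dark minus light (Nr4a1 added). Over all genes it called 1109 against 622 for the arcuate 24-h component, 946 against 450 for any time, 853 against 513 for dark minus light and 23 against 0 for genotype. In nodose the first 3 were 359 against 198, 404 against 165 and 150 against 61. With muscle and adipocyte scores 1 member each passed for the nodose rhythm in Control, in HepDKO and averaged. With the Schwann cell score these were 1 in Control and 1 in HepDKO, with 2 for any time and 1 for the tissue difference in the 24-h component. That difference also had 1 member with unshrunken coefficients and 1 in 1 fit over both tissues. For the fits with marker scores, unshrunken coefficients, both tissues or the replicate block, the counts over all genes are not given here.

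The labels tie no replicate number to a shared animal, batch or day. Deviations of same-numbered libraries of both genotypes at one time correlated over 0.1 in 0 of 12 arcuate and 7 of 12 nodose pairs (from -0.21 to 0.36 in nodose). As not every pair did, the numbers were not taken as a pairing. With the replicate block 2 members passed for any time in nodose (Nr4a3 with a range of 1.55, adjusted p 0.0399 by edgeR) and 1 for the tissue difference in the 24-h component (Nr4a3 with 1.05, adjusted p 0.0363).

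Some directions changed. Without the high-Xist libraries these were Npas4 by genotype (0.03) and Nr4a2 in the 12-h component (-0.01) in arcuate, and Nr4a3 in dark minus light between tissues (-0.01). With muscle and adipocyte scores, Nr4a2 was at 0.02 by genotype and -0.09 in the 12-h component of nodose, its times changed order (range 0.26), and Fos was at -0.03 in dark minus light. Between tissues Egr2 was then at 0.05 by genotype and Nr4a2 at -0.12 in the 12-h component.

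With 1 library left out, members called ran from 1 to 3 for the arcuate 24-h component, 3 to 7 for any time, 1 to 2 for dark minus light, 1 to 3 for the 12-h component and 0 to 1 for the rhythm in HepDKO. In nodose they ran from 1 to 2 for the 24-h component, any time and dark minus light, and 0 to 1 for the rhythm in each genotype, as for the tissue difference in the 24-h component. Over all genes the arcuate counts ran from 287 to 1031 for the 24-h component, 215 to 993 for any time and 191 to 935 for dark minus light, and the nodose ones from 129 to 276, 96 to 284 and 37 to 113. Directions also changed for the following, given as lowest and highest value. In arcuate these were Nr4a2 in the 12-h component (-0.05 to 0.16), Egr2 (-0.16 to 0.02), Npas4 (-0.01 to 0.18) and Nr4a2 (-0.06 to 0.15) in dark minus light, and by genotype Arc (-0.09 to 0.01), Egr2 (-0.17 to 0.03), Npas4 (-0.13 to 0.06), Nr4a1 (-0.02 to 0.07) and Nr4a3 (-0.04 to 0.08). In nodose they were Fosb (-0.52 to 0.20) and Junb (-0.16 to 0.02) in the 12-h component, Nr4a2 for any time (0.07 to 0.22, where the order of the times changed), Fos (-0.04 to 0.33), Fosb (-0.54 to 0.18) and Nr4a2 (-0.08 to 0.06) in dark minus light, Fosb (-0.75 to 0.01) and Nr4a3 (-0.28 to 0.07) by genotype, and Fos (0.02 to 0.31) and Nr4a2 (0.00 to 0.08) in the 24-h amplitude, where the peak moved. Between tissues they were Nr4a2 in the 12-h component (-0.06 to 0.15), Egr1 (-0.19 to 0.11), Fosb (-0.13 to 0.59), Nr4a2 (-0.19 to 0.02) and Nr4a3 (-0.11 to 0.24) in dark minus light, and Egr2 (-0.19 to 0.02), Fosb (-0.51 to 0.26) and Nr4a3 (-0.30 to 0.05) by genotype.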
